A study of Mus musculus with 34 samples.

Results

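Sarcomere and Z-disc genes encode the contractile unit of striated muscle and the proteins that anchor it. The 38 genes described here are a fixed list of named genes, 9 of the thick filament, 14 of the thin filament, 3 of titin and the M-band, 9 of the Z-disc and its links and 3 that act in sarcomere assembly or transcription. All 38 were found among the 52636 genes of the deposited table. The libraries hold RNA of the mouse line F1(G4), of strain 129S2/C57Bl6J, with the gene Hdn (Handsdown, a long non-coding RNA) either intact or mutant. These are embryonic stem cells (ESCs), pluripotent cells that can form any tissue. Both genotypes were sampled as undifferentiated ESCs kept in 2i medium and at days 3, 4, 5 and 6 after differentiation began, with BMP4 at 20 ng/mL, without serum, as hanging drops that were later plated on fibronectin. Each of the 10 groups of genotype and stage held 3 libraries. Sample titles use the term Hdn null, but neither a sequence change nor a number of clones is stated, so that a feature of 1 clone and of the mutation cannot be told apart. There are 2 conflicts among the labels, in that the series' design text names Brachyury mutants while samples are labelled Hdn, and a growth protocol describes embryonic hearts where titles and treatments describe cultured cells; the titles and treatments were followed.

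In a sarcomere, myosin thick filaments pull on actin thin filaments. Calcium binds the troponin complex, which moves tropomyosin along actin and lets myosin attach. Titin spans from the Z-disc, where alpha-actinin crosslinks thin filaments of neighbouring sarcomeres, to the M-band, where myomesins link thick filaments. The embryonic heart first expresses atrial and slow-skeletal isoforms widely and later separates atrial from ventricular ones, with Myl7 and Myl4 kept in the atria and Myl2 and Myl3 in the ventricles. Serum response factor binds CArG boxes in many of these promoters, and myocardin is its cofactor in the heart.

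Levels below are scaled RPKM, the deposited reads per kilobase per M reads divided by 1 size factor per library, and values of a group are in the order of replicates 1, 2 and 3. A gene was kept for testing at 1 scaled RPKM or more in at least 3 libraries. Changes are on the log2(scaled RPKM + 0.5) scale, ± SE, with Benjamini-Hochberg adjusted p from limma over the 14196 genes kept, and this scale understates changes of genes near 0. Calls needed a log2 change of 1 or more in size together with an adjusted p under 0.05. Lack of overlap between groups was not counted over all genes, and is given below as a description only. Of the 38 genes, 28 were kept, and 10 lay below (Myh3, Myl1, Tnnc2, Neb, Nebl, Ttn, Myom2, Xirp1, Smpx and Myocd). A further 10 reached the limit in mutant libraries alone (Myh6, Myh7, Myl2, Tmod1, Myom1, Actn2, Ldb3, Tcap, Myoz2 and Unc45b), 6 of them in day 6 mutant libraries alone, so those genes had to differ and counts over the 28 are given as descriptions. Nothing in the labels says that replicates were separate cultures, and p-values then measure the spread between libraries, which may be technical. In bulk RNA, more cells of a type and more RNA per cell cannot be told apart.

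Reads per library, inferred from the steps of the RPKM values, ran from 43.3 to 68.4 M with a median of 57.2 M. Hdn, listed as 5033428I22Rik, was at 60, 37 and 240 reads in wild type on day 6 and at 0, 8 and 3 in the mutant. It was at 0 reads in all mutant ESC, day 3 and day 4 libraries, and also in wild-type ESCs. Wild type held only 2, 4 and 0 reads on day 3 and 1, 2 and 9 on day 4. On day 5 wild type held 19, 24 and 29 reads and the mutant 0, 0 and 1. The adult beta-globin Hbb-bs and Cox8b, a cytochrome oxidase subunit of mature muscle, stood at 19.8 and 3.08 in mutant day 4 replicate 3, at 27 and 3.02 in mutant day 5 replicate 3, and at 61.0 to 181 and 5.83 to 18.8 in the 3 mutant day 6 libraries. In the other 10 mutant libraries Hbb-bs was at 0.16 or less and Cox8b at 0.0624 or less, and in wild type Cox8b was at 0 in all 15 libraries and Hbb-bs at 1.53 or less. These 5 mutant libraries stand apart from their labels, and results on days 4 and 5 are given with and without them; day 6 has no mutant library without these transcripts. Wild-type day 6 replicate 3 also differed from its fellows, with the embryonic globin Hbb-bh1 at 109 against 0.374 and 0.403 and Hbb-y at 2.42 against 0.0241 and 0. Its adult alpha-globins Hba-a1 and Hba-a2 stood at 23.7 and 22.3, against 18.7 and 21.8 in mutant day 4 replicate 3, while its Hbb-bs was at 1.53 and its Cox8b at 0. The 5 mutant libraries are called libraries with adult globins below for their Hbb-bs and Cox8b, and adult alpha-globin was also high in this wild-type library. Genes that overlap others in the annotation (Myl2 with Ccdc63, Tpm2 with Car9, Tmod1 with Tstd2, Myl4 with Cdc27 and Unc45b with its antisense gene, among others) may hold reads of their neighbours, since the strand setting of the counting is not given.

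The promoters that carry a CArG box are shown because Myocd, the gene of its cardiac cofactor, is on the list. RefSeq promoter windows of GRCm38.p6 were matched by symbol for 32 of the 38 genes, 41 windows in all. A CArG box lay within 250 bases before the start in 8 of the 41 windows (19.5%), belonging to Actc1, Acta1, Myl7, Myl3, Ldb3, Myom1 and Nebl, against 1.47% of all 32851 windows. These are 7 of the 32 genes. The 2 windows of Ldb3 overlap and hold the same box, and Nebl has a box in 1 of its 4 windows. The last 150 bases before the start are printed for 6 of these genes, 5′ to 3′ in the direction of the gene, with the CArG box in capitals.
Actc1, chr2:114052876-114053025, minus strand: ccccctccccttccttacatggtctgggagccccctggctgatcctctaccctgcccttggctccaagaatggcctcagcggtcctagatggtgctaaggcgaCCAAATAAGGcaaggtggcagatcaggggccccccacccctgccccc
Acta1, chr8:123894776-123894925, minus strand: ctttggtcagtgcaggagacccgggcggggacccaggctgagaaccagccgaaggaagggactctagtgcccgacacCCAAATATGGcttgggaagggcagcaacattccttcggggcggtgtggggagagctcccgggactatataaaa
Myl7, chr11:5898783-5898932, minus strand: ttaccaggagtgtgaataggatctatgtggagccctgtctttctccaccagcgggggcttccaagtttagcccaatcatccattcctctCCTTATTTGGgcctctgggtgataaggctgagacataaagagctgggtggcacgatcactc
Myl3, chr9:110763528-110763677, plus strand: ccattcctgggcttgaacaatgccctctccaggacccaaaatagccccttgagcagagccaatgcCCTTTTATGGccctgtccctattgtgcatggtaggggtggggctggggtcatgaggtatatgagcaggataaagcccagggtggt
Ldb3, chr14:34588682-34588831, minus strand: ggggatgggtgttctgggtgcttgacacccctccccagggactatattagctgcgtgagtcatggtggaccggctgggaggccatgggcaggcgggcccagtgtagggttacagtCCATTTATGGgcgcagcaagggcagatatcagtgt
Myom1, chr17:71019407-71019556, plus strand: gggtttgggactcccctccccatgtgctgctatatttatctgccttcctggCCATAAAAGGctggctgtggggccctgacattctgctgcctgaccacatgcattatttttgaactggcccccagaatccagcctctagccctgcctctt
The windows of Ldb3 and Myom1 precede starts inside the gene's annotated span. Both strands were also searched for a MEF2 site, found in 7.32% of the 41 windows (Mybpc3, Myoz2 and Ttn) against 1.69% of all windows. TATAAA was in 14.6% against 12.4%, CATTCC in 29.3% against 12.6%, AGATAA in 17.1% against 9.99% and CANNTG in 78.0% against 66.2%, and no matches of different motifs overlapped in these 41 windows. A match is a stretch of letters, not evidence of binding.

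**Figure D1:**
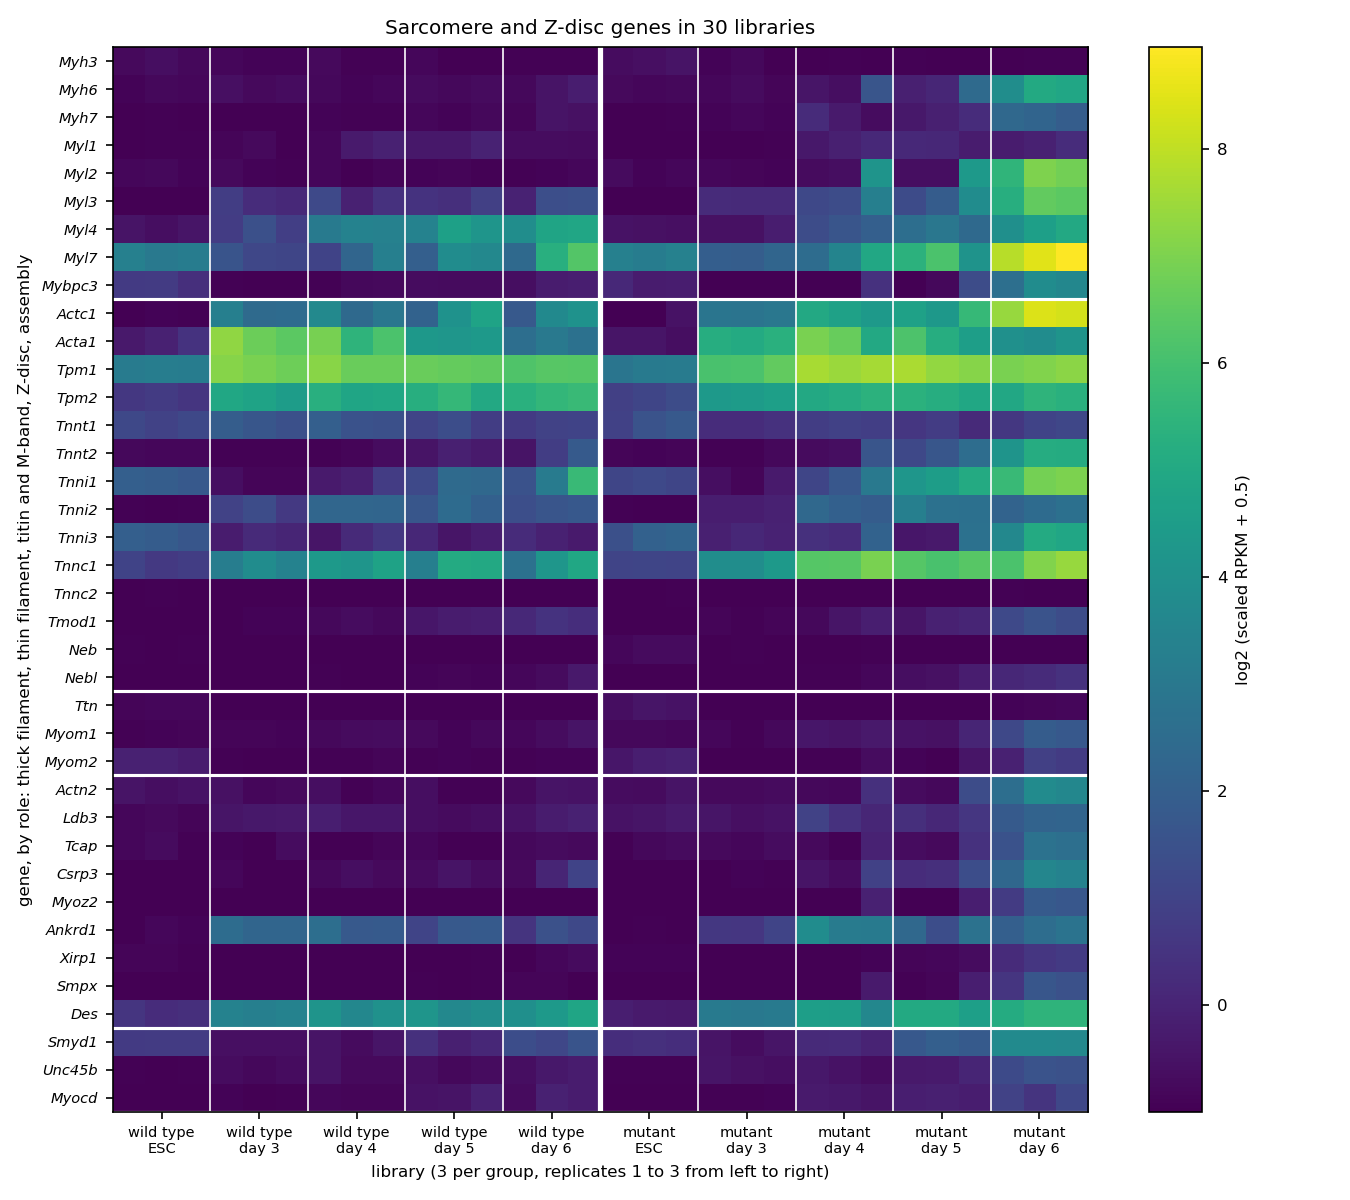
Heat map of the 38 genes (rows, grouped by role) in 30 libraries (columns, 3 per group), coloured by log2(scaled RPKM + 0.5). A total of 28 genes have their highest library among the 3 mutant day 6 libraries, in the last 3 columns, while Acta1 is highest in wild-type day 3 replicate 1 and Ttn in mutant ESC replicate 2.

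From ESCs to day 3 the actins Acta1 and Actc1, the tropomyosins, Tnnc1, Des and Ankrd1 rose in both genotypes. In wild type 10 of the 28 genes rose and 5 fell, where 17.4% of all genes tested rose and 20.3% fell. In the mutant 8 rose and 3 fell, against 18.2% and 21.6% of all genes. The largest rise was that of Acta1, skeletal alpha-actin, from 0.309, 0.452 and 0.871 to 157, 105 and 87.1 in wild type (log2 change 6.80 ± 0.40, adjusted p = 2.5e-13). In the mutant it went from 0.237, 0.242 and 0.145 to 36.8, 33.8 and 39.2 (5.71 ± 0.40, adjusted p = 5.0e-12), so the groups of each genotype were far apart. The tropomyosins Tpm1 (3.79 ± 0.15 in wild type, 3.25 ± 0.15 in the mutant) and Tpm2 (4.10 ± 0.17 and 3.38 ± 0.17), which lie along actin, rose in both, as did cardiac actin Actc1 (3.70 ± 0.54 and 3.71 ± 0.54), cardiac troponin C Tnnc1 (2.67 ± 0.43 and 2.97 ± 0.43), the intermediate filament gene Des (3.01 ± 0.22 and 3.31 ± 0.22) and the stress-responsive Z-disc gene Ankrd1 (3.25 ± 0.31 and 1.72 ± 0.31). Each of these had an adjusted p of 2.8e-05 or less. Myl3 passed in both genotypes but near the threshold (1.39 ± 0.54, adjusted p = 0.024, and 1.20 ± 0.54, adjusted p = 0.048). Its wild-type call was lost without ESC replicate 1 or day 3 replicate 1 (adjusted p = 0.051 and 0.088), and its mutant call without any 1 of the 6 libraries (adjusted p = 0.084 to 0.089); a pseudocount of 1 or no filter ended both (0.11 and 0.18, 0.051 and 0.083). Myl4 (1.53 ± 0.29) and fast troponin I Tnni2 (1.96 ± 0.19) rose in wild type.

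Several contractile genes were detected in ESCs and fell by day 3. Slow troponin I Tnni1 went from 3.56, 3.32 and 2.98 to 0.143, 0.0564 and 0.0539 in wild type, and fell in the mutant too (log2 changes -2.70 ± 0.64 and -1.72 ± 0.64, adjusted p = 0.00065 and 0.019); the mutant call was lost without day 3 replicate 2 (adjusted p = 0.058) and with a pseudocount of 1 (0.073). Cardiac troponin I Tnni3 went from 3.55, 3.24 and 2.69 to 0.352, 0.64 and 0.513 in wild type (-1.87 ± 0.56, adjusted p = 0.0049) and fell in the mutant by 1.95 on the log2 scale (SE 0.56, adjusted p = 0.0035). In wild type Smyd1 (-1.31 ± 0.12), a muscle histone methyltransferase that also acts as a myosin chaperone, and Mybpc3 (-1.56 ± 0.41), which regulates crossbridges, fell as well, though by 0.88 and 0.99 with a pseudocount of 1. Atrial light chain Myl7 fell in wild type (-1.91 ± 0.73, adjusted p = 0.023), a call lost without ESC replicate 1 or day 3 replicate 2 or 3 (adjusted p = 0.056 to 0.058). Slow skeletal troponin T Tnnt1 fell in the mutant (-1.10 ± 0.20, adjusted p = 3.8e-05), and by less than the limit without ESC replicate 3 (-0.93), with a pseudocount of 1 (-0.87) and with quantile normalization (-0.92).

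In ESCs themselves none of the 28 genes was called between mutant and wild type by limma, where 8.55% of all genes were higher and 3.13% lower in the mutant. At an unadjusted p under 0.05, 4 of the 28 differed (Tpm2, Ldb3, Des and Smyd1). The same 4 passed by adjusted p alone, 2 higher and 2 lower. By adjusted p alone 3178 of the 14196 genes kept were higher and 3283 lower, so the listed genes passed less often than all genes. On day 3 none was higher and 5 were lower in the mutant, against 0.873% and 2.48% of all genes. The 5 were Acta1, Ankrd1, Myl4, Tnnt1 and Tnni2. Acta1 was lower at 36.8, 33.8 and 39.2 against 157, 105 and 87.1 (log2 change -1.62 ± 0.40, adjusted p = 0.0060). Ankrd1 was lower at 1.03, 0.994 and 1.54 against 5.26, 4.26 and 4.29 (-1.60 ± 0.31, adjusted p = 0.00075). Atrial light chain Myl4 was lower at 0.188, 0.175 and 0.359 against 1.22, 2.19 and 1.29 (-1.46 ± 0.29, adjusted p = 0.00093). Tnnt1 (-1.36 ± 0.20, adjusted p = 4.5e-05) and Tnni2 (-1.16 ± 0.19, adjusted p = 0.00012) were lower too, and in all 5 genes no mutant library reached the lowest wild-type library. The Tnni2 change was -0.98 without wild-type day 3 replicate 2 and -0.84 with a pseudocount of 1, both under the size limit. Acta1, Actc1 and smooth muscle actin Acta2 are near-identical in coding sequence, and how the authors' counting shared reads between them is not given. Acta2 was at 36.0, 37.3 and 42.7 in the mutant against 125, 64.6 and 49.8.

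In wild type the atrial light chains Myl4 and Myl7 and the slow troponin I Tnni1 rose after day 3. By day 5, 3 genes were higher than on day 3 and 1 was lower (5.61% and 3.37% of all genes); by day 6, 8 were higher and 2 lower (8.95% and 4.95%). Myl4 was at 1.22, 2.19 and 1.29 on day 3, 8.18, 10.1 and 9.88 on day 4, 10.2, 24.5 and 17.6 on day 5 and 14.2, 27.6 and 29.4 on day 6 (day 6 against day 3, 3.51 ± 0.29, adjusted p = 1.1e-09). Myl7 reached 4.79, 38.3 and 78.7 on day 6 (3.39 ± 0.73, adjusted p = 0.00061) and Tnni1 reached 2.32, 8.33 and 52.8 (4.24 ± 0.64, adjusted p = 9.6e-06). For both genes replicate 3 was the highest library and replicate 1 the lowest. Smyd1 was at 2.05, 1.70 and 2.48 on day 6 (1.95 ± 0.12) and Tmod1, which caps thin filaments, rose by 1.24 ± 0.13. Tnnt2 rose by day 6 (1.67 ± 0.48, adjusted p = 0.0066), but not without replicate 3 of day 6 (adjusted p = 0.070). Csrp3 (1.04 ± 0.37, adjusted p = 0.027) lost its call when replicate 2 or 3 of day 3, or of day 6, was left out (adjusted p = 0.054 to 0.22), and Des (1.02 ± 0.22) fell under the size limit without day 3 replicate 2 or day 6 replicate 3 (0.97 and 0.79). A pseudocount of 1 took Csrp3, Des and Tmod1 under the size limit (0.66, 0.99 and 0.76), quantile normalization took Des there (0.95), and Csrp3 missed the threshold with no filter or only 6 libraries (0.062 and 0.083). Without day 6 replicate 3, 5 genes were higher.

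Acta1 and Ankrd1 ran the other way in wild type. Acta1 went from 157, 105 and 87.1 on day 3 through 120, 43.8 and 69.6 and then 19.3, 18.1 and 19.9 to 5.54, 7.68 and 5.99 on day 6 (-4.05 ± 0.40, adjusted p = 1.8e-08). Ankrd1 went from 5.26, 4.26 and 4.29 to 0.918, 2.26 and 1.75 (-1.30 ± 0.31, adjusted p = 0.0015). In both genes day 6 did not overlap day 3. By day 5 Tnni1 (2.79 ± 0.64), Myl4 (3.06 ± 0.29) and Tnni2 (1.08 ± 0.19) had risen, and Tnni2 dropped below the size limit without day 3 replicate 3 (0.92) or day 5 replicate 2 (0.88) and with a pseudocount of 1 (0.92). Ventricular Myl2 did not appear in wild type, and its highest value in any of the 15 libraries was 0.0979.

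**Figure D2:**
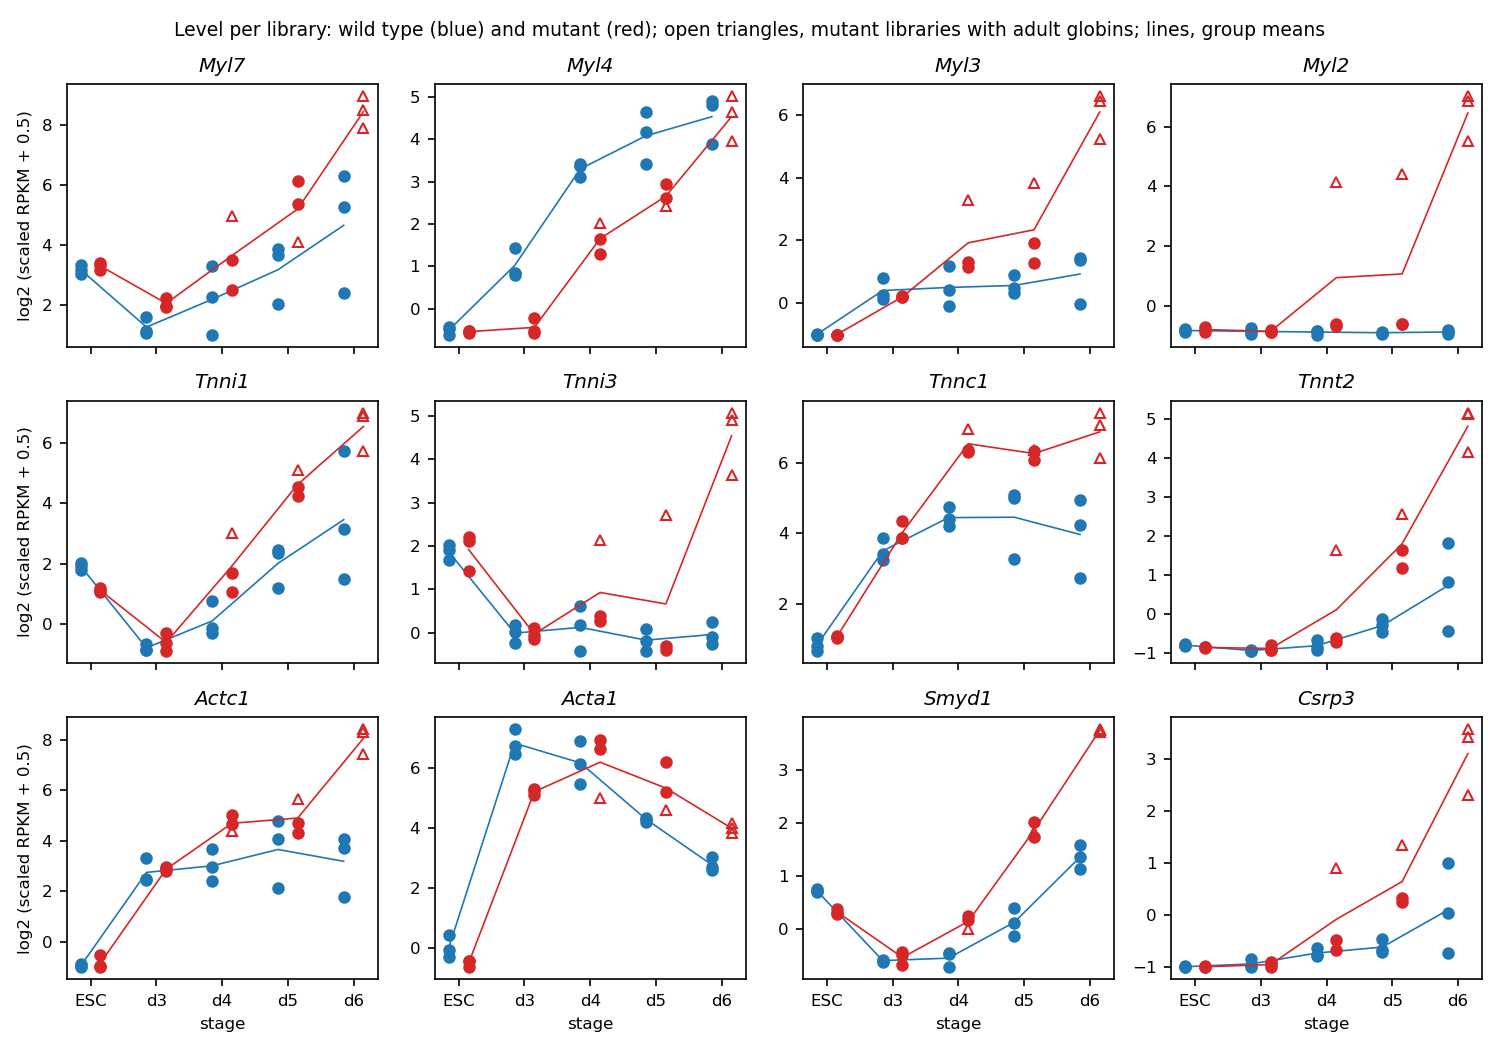
Log2(scaled RPKM + 0.5) of 12 genes by stage in wild type (blue) and mutant (red), with 1 point per library, lines through group means and open triangles for the 5 mutant libraries with adult globins. Myl4 runs lower in the mutant from day 3 to day 5 and meets wild type on day 6, Myl2 stays at 0.154 or less in every mutant library that is not a triangle, and Smyd1 splits on day 5 with all 3 mutant libraries between 2.84 and 3.53.

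On day 4 the thin filament genes Tnnc1, Actc1 and Tnni1 were higher in the mutant and Myl4 was lower. In the mutant 4 of the 28 genes were higher and 1 lower, against 2.37% and 2.81% of all genes. Tnnc1 was higher at 79.1, 81.5 and 125 against 20.6, 17.9 and 26.3, with no overlap (2.10 ± 0.43, adjusted p = 0.0010). Actc1 was higher at 32.0, 25.2 and 20.2 against 12.4, 4.76 and 7.24 (1.68 ± 0.54, adjusted p = 0.027). Ankrd1 was higher at 13.7, 8.30 and 7.88 against 5.53, 2.95 and 3.04, the reverse of its day 3 difference (1.28 ± 0.31, adjusted p = 0.0041). Tnni1 was at 1.60, 2.72 and 7.67 against 0.322, 0.409 and 1.19, the highest value being the library with adult globins (1.82 ± 0.64, adjusted p = 0.044). Myl4 was lower at 1.96, 2.60 and 3.59 against 8.18, 10.1 and 9.88 (-1.65 ± 0.29, adjusted p = 0.00021).

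Without the 5 mutant libraries the day 4 counts were again 4 and 1, against 2.42% and 2.32% of all genes. Actc1 (1.84 ± 0.61, adjusted p = 0.041), Tnnc1 (1.89 ± 0.48, adjusted p = 0.0093), Ankrd1 (1.42, adjusted p = 0.0038) and Myl4 (-1.84 ± 0.29, adjusted p = 0.00019) stayed called. Tnni1 did not pass (1.27 ± 0.70, adjusted p = 0.25), and Ldb3, a PDZ and LIM protein of the Z-disc, passed with a log2 change of 1.00. Leaving out single libraries also ended the Actc1 call (mutant replicate 1 or 2, wild-type replicate 2 or 3; adjusted p = 0.053 to 0.13) and the Tnni1 call (mutant replicate 2 or 3, wild-type replicate 1 or 2; 0.060 to 0.23). Fits of only the 6 libraries compared ended the Ankrd1 and Tnni1 calls (adjusted p = 0.059 and 0.097), no filter those of Actc1 and Tnni1 (0.066 and 0.10), and a pseudocount of 1 that of Tnni1 (0.083). Myl2 was at 0.117, 0.144 and 17.1 and Actn2 at 0.0754, 0.069 and 0.802, so that a day 4 level rested on replicate 3 alone, and neither gene was called.

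On day 5, 7 genes were higher in the mutant and 1 was lower, against 2.42% and 3.59% of all genes. Smyd1 gave the smallest adjusted p of the 8, at 2.84, 3.53 and 3.03 against 0.816, 0.418 and 0.583 (1.73 ± 0.12, adjusted p = 1.7e-09), and its 3 mutant libraries were alike whether or not they held adult globins. Tnni1 was higher at 18.4, 22.7 and 33.7 against 1.81, 5.01 and 4.67 (2.61 ± 0.64, adjusted p = 0.0043). Cardiac troponin T Tnnt2, which ties troponin to tropomyosin, was higher at 1.76, 2.63 and 5.39 against 0.217, 0.405 and 0.314 (2.10 ± 0.48, adjusted p = 0.0023). Tnnc1 was higher at 80.6, 68.1 and 82.0 against 9.22, 33.5 and 31.7 (1.81 ± 0.43, adjusted p = 0.0034). In these 4 genes, already chosen by their call, the genotypes did not overlap. Myl4 was again lower, at 5.62, 7.13 and 4.83 against 10.2, 24.5 and 17.6 (-1.43 ± 0.29, adjusted p = 0.00073).

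The other 3 calls of day 5 had their highest library in mutant replicate 3. Cardiac alpha-myosin Myh6 was at 0.421, 0.558 and 4.89 against 0.119, 0.0783 and 0.112 (1.53 ± 0.49, adjusted p = 0.026). Ventricular light chain Myl3 was at 1.92, 3.26 and 13.7 against 0.884, 0.763 and 1.35 (1.77 ± 0.54, adjusted p = 0.020). The Z-disc mechanosensor gene Csrp3 was at 0.69, 0.762 and 2.06 against 0.112, 0.225 and 0.13 (1.26 ± 0.37, adjusted p = 0.017). Their mutant replicates 1 and 2 still lay above every wild-type library. Without the 5 mutant libraries, 8 genes were higher and 1 lower, against 2.85% and 3.79% of all genes: Myl7 (2.57 ± 0.77, adjusted p = 0.020), Tnni1 (2.38 ± 0.70, 0.017), Tnnc1 (1.76 ± 0.48, 0.011), Smyd1 (1.75 ± 0.14, 1.8e-07), Tnnt2 (1.72 ± 0.35, 0.0014), Acta1 (1.41 ± 0.33, 0.0038), Des (1.14 ± 0.20, 0.00028) and Myl3 (1.03 ± 0.36, 0.042), with Myl4 at -1.31 ± 0.29 (0.0030). Myh6 (0.71 ± 0.13) and Csrp3 (0.91 ± 0.27) fell under the size limit, with adjusted p of 0.00047 and 0.019. Leaving out mutant replicate 3 from the whole fit ended the calls of Myh6, Myl3 and Csrp3 (adjusted p = 0.24, 0.17 and 0.11). Myh6 was also lost without wild-type replicate 2 or 3 (0.078 and 0.064), Myl3 without wild-type replicate 2 (0.077) and Csrp3 without wild-type replicate 3 (0.052). Fits of only the 6 libraries compared ended the calls of Tnnc1, Myl3 and Myh6 (adjusted p = 0.058, 0.13 and 0.19), no filter that of Myh6 (0.063), and a pseudocount of 1 took the Csrp3 change to 0.86, under the size limit.

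**Figure D3:**
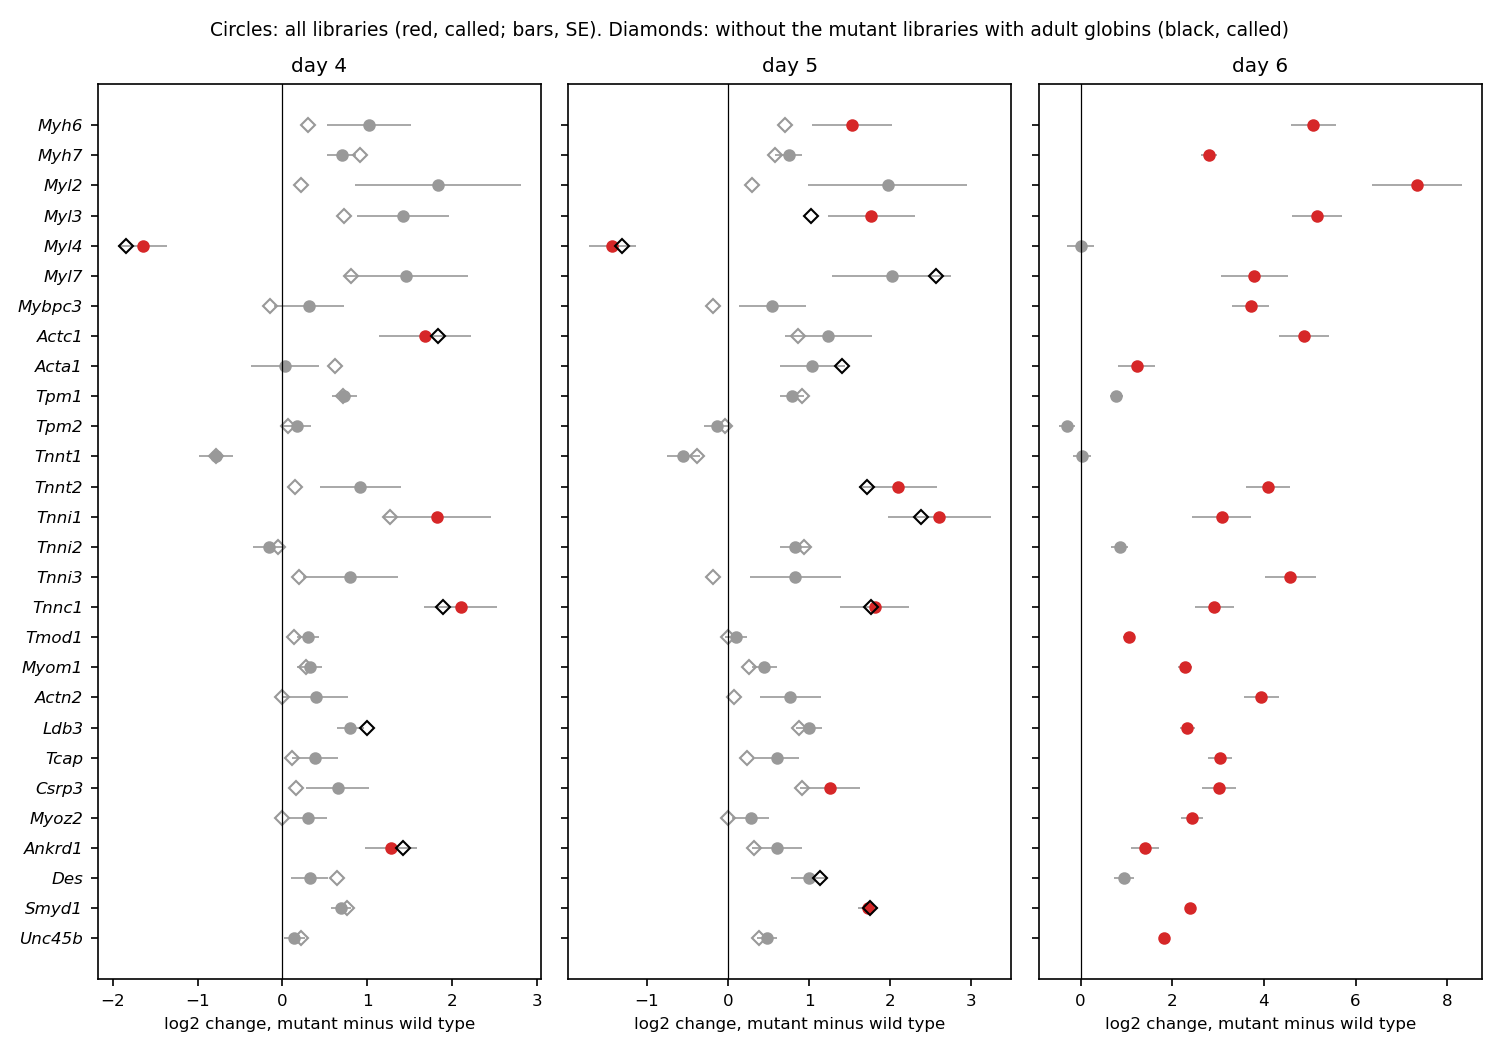
Log2 change, mutant minus wild type, of the 28 genes kept, on days 4, 5 and 6 (circles with SE bars; red where called) and, for days 4 and 5, without the 5 mutant libraries with adult globins (diamonds; black where called). Myl2 moves from 1.97 to 0.30 on day 5 when these libraries are left out, whereas Smyd1 stays at 1.73 and 1.75 and Myl4 at -1.43 and -1.31; on day 6 Myl2 stands at 7.34.

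On day 6, 22 of the 28 genes were higher in the mutant and none was lower, against 3.66% and 4.12% of all genes. By role, 6 of 7 thick filament genes tested, 7 of 11 thin filament genes, the 1 titin and M-band gene tested, 6 of 7 Z-disc genes and both assembly genes were higher. These counts are descriptions, since Myh6, Myh7, Myl2, Tmod1, Myom1, Actn2, Ldb3, Tcap, Myoz2 and Unc45b reached the filter in mutant libraries alone. Those genes had to differ on day 6, and nothing is read below from their day 6 p-values or from a lack of overlap between their groups. All 3 mutant libraries of this comparison held adult globins and Cox8b. The whole list of 7 adult red cell genes summed to 250, 720 and 598 there against 0.919, 0.444 and 49.6 in wild type, 0 of the 7 being at 0 in all 3 mutant libraries, and the 12 genes of mature heart energy and calcium handling to 237, 496 and 555 against 297, 459 and 634, with 10 of the 12 at 1 or more in every mutant library and 4 of 12 in every wild-type library. The part of these transcripts in the day 6 result was not tested.

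The thick filament genes Myl2, Myl3 and Myh6 had the 3 largest changes. Myl2 was higher at 45.2, 129 and 115 against 0.0157, 0.0362 and 0.0721 (7.34 ± 0.98, adjusted p = 4.3e-06). Myh6 was higher at 14.1, 32.6 and 28.9 against 0.077, 0.223 and 0.374 (5.08 ± 0.49, adjusted p = 4.8e-08). Myl3 was higher at 37.3, 95.5 and 86.2 against 0.478, 2.12 and 2.19 (5.16 ± 0.54, adjusted p = 1.5e-07). For Myl3 no library of either genotype crossed into the range of the other. Myl2 and Myh6 passed the filter through mutant libraries alone. Mutant replicate 1 was the lowest of its group in each of the 3 genes. Myl7 was higher at 237, 366 and 497 against 4.79, 38.3 and 78.7 (3.79 ± 0.73, adjusted p = 0.00036). Mybpc3 was higher at 5.69, 13.8 and 11.6 against 0.143, 0.339 and 0.386 (3.71 ± 0.41, adjusted p = 2.8e-07). Slow myosin Myh7 was higher at 4.71, 4.17 and 3.28 against 0.0463, 0.218 and 0.191 (2.80 ± 0.17, adjusted p = 4.4e-11), and here replicate 1 was the highest of the mutant libraries. Myl4 was at 15.0, 24.3 and 31.7 against 14.2, 27.6 and 29.4, fully overlapping, with a log2 change of 0.00 ± 0.29. Embryonic myosin Myh3 and the fast skeletal light chain Myl1 lay below the filter, at up to 0.223 (mutant ESC replicate 3) and 0.713 (mutant day 6 replicate 3). Myh6 and Myh7 lie side by side on chromosome 14 and are similar in sequence, so that reads could be shared between them.

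Of the thin filament, Actc1 was higher at 171, 343 and 320 against 2.92, 12.6 and 16.4 (4.87 ± 0.54, adjusted p = 3.5e-07). Tnni3, the troponin I of the mature heart, was higher at 12, 33.2 and 29.5 against 0.681, 0.436 and 0.333 (4.58 ± 0.56, adjusted p = 1.4e-06). Tnnt2 was higher at 17.2, 35.3 and 34.6 against 0.229, 1.27 and 2.99 (4.09 ± 0.48, adjusted p = 7.2e-07). These 3 genes showed no overlap, and replicate 1 was again the lowest mutant library. Tnni1 was at 53.1, 117 and 127 against 2.32, 8.33 and 52.8 (3.08 ± 0.64, adjusted p = 0.00075), so that wild-type replicate 3 came close to mutant replicate 1, and the call was lost in a fit of only these 6 libraries (adjusted p = 0.081). Tnnc1 was at 70.3, 135 and 172 against 6.09, 18.5 and 30.2 (2.92 ± 0.43, adjusted p = 1.6e-05). Acta1 was at 15.6, 13.7 and 17.3 against 5.54, 7.68 and 5.99 (1.22 ± 0.40, adjusted p = 0.023), and its call was lost without mutant replicate 1 or 3 or wild-type replicate 1 or 3 (adjusted p = 0.059 to 0.072). Tmod1 was higher by 1.05 ± 0.13, and by 0.95 or 0.98 without mutant replicate 2 or wild-type replicate 1, and 0.82 with a pseudocount of 1, all under the size limit. The tropomyosins Tpm1 (0.78 ± 0.15) and Tpm2 (-0.30 ± 0.17), Tnnt1 (0.03 ± 0.20) and Tnni2 (0.85 ± 0.19) were not called.

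At the Z-disc and M-band, alpha-actinin Actn2 was higher at 5.59, 13.6 and 11.8 against 0.0926, 0.214 and 0.198 (3.94 ± 0.38, adjusted p = 4.8e-08). Tcap, which binds the end of titin, was higher at 2.35, 6.30 and 5.65 against 0.0806, 0.112 and 0.0988 (3.04 ± 0.27, adjusted p = 1.8e-08). Csrp3 was higher, from 745, 1859 and 1551 reads against 18, 80 and 256 (3.01 ± 0.37, adjusted p = 1.6e-06). For Csrp3 the groups did not overlap, while Actn2 and Tcap passed the filter through mutant libraries alone. The myomesin gene Myom1 was higher at 1.73, 3.26 and 2.89 against 0.0674, 0.131 and 0.212 (2.27 ± 0.15, adjusted p = 1.1e-10). Ldb3 (2.33 ± 0.16) and Ankrd1 (1.41 ± 0.31) were higher too. Myoz2, which binds calcineurin at the Z-disc, was at 249, 636 and 538 reads against 0 in all 3 wild-type libraries, at least 165-fold higher with 3 reads per library as the limit of a 0. Des was at 34.0, 44.6 and 43.7 against 14.9, 20.6 and 28.6, without overlap, and its change of 0.95 ± 0.22 stayed under the size limit.

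The assembly genes Smyd1 and Unc45b, a chaperone that folds myosin heads, were higher as well. Smyd1 was higher at 13, 13.1 and 12.5 against 2.05, 1.70 and 2.48 (2.39 ± 0.12, adjusted p = 7.5e-12). Unc45b was higher at 1.86, 2.43 and 2.29 against 0.146, 0.287 and 0.337 (1.83 ± 0.12, adjusted p = 1.1e-10). Myocd, the gene of the myocardin cofactor, lay below the filter and was not tested; it stood at 0 to 0.00608 in all ESC libraries, at 0.33, 0.277 and 0.22 in the mutant on day 4 against 0.0676, 0.0515 and 0.0546, and at 1.45, 0.922 and 1.67 on day 6 against 0.117, 0.431 and 0.348. Its mutant and wild-type libraries did not overlap on these days, but did on day 5, at 0.391, 0.429 and 0.376 against 0.198, 0.227 and 0.438.

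Titin and nebulin had their highest levels in mutant ESCs. Ttn was at 0.0535, 0.0639 and 0.0605 in wild-type ESCs and 0.151, 0.24 and 0.202 in mutant ESCs, and the mutant ESC libraries lay above all libraries of days 3 to 6. On day 6 it was at 0.0406, 0.0538 and 0.0718 in the mutant, from 296, 381 and 471 reads, against 0.00157, 0.00544 and 0.00802 in wild type. A length of 116825 bases, inferred from the RPKM steps, divides its reads, so that these mutant day 6 values rest on 296 reads or more and the wild-type ones on 12, 36 and 60. Neb, the giant ruler protein of skeletal thin filaments, was at 0.0692, 0.116 and 0.116 there and at 0.00603 or less in day 6 mutant libraries. Nebl, its smaller cardiac relative, was at 0.566, 0.67 and 0.835 in mutant day 6 libraries, and Myom2 at 0.436, 1.35 and 1.18. Xirp1 was at 0.658, 0.981 and 1.13 and Smpx at 0.958, 2.63 and 2.25, and fast skeletal Tnnc2 had 0 or 1 read in every library. None of these genes passed the filter.

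Within the mutant, 14 genes were higher on day 5 than on day 3 and none was lower (8.3% and 5.16% of all genes), and 24 were higher on day 6 than on day 3 with 1 lower (12% and 5.58%). The comparisons between stages and between genotypes share libraries, and are not independent of each other. Without the 5 mutant libraries 13 were higher on day 5, and none lower, against 8.31% and 4.64% of all genes. Tnni1 rose from 0.147, 0.0437 and 0.314 to 18.4, 22.7 and 33.7 by day 5 (5.23 ± 0.64, adjusted p = 6.2e-07), and Tnni2 from 0.365, 0.36 and 0.445 to 9.24, 6.15 and 5.86 (3.07 ± 0.19, adjusted p = 1.2e-11). Myl7 rose from 3.47, 3.35 and 4.27 to 41.2, 69.3 and 16.8, lowest in the library with adult globins (3.14 ± 0.73, adjusted p = 0.0014). Myl4 rose as well (3.10 ± 0.29). Myh6 lost its call without day 5 replicate 3 (0.79, adjusted p = 0.13) and in a fit of only 6 libraries (0.087), and Tpm1 dropped to 0.98 without day 5 replicate 1. Mybpc3 was at 0 reads in all 3 mutant day 3 libraries and at 1478, 3475 and 2716 reads on day 6, at least 743-fold higher by the same limit. Acta1 was lower on day 6 than on day 3 (-1.21 ± 0.40, adjusted p = 0.014), at 15.6, 13.7 and 17.3 against 36.8, 33.8 and 39.2.

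Whether the mutant difference depended on stage was asked by an F test of the 4 changes relative to ESCs. It passed at an adjusted p under 0.05 for 27 of the 28 genes, where 42.2% of all genes passed, and Tpm2 was the exception. Over ESC to day 5 without the 5 mutant libraries it passed for 14 of the 28, against 46.2% of all genes. The adjusted p of Smyd1, which passed the filter through both genotypes, was 1.2e-09. The 10 genes that passed the filter through mutant libraries alone, 6 of them through mutant day 6 alone, had to differ. Nothing is read from their p, and the 27 include them.

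Isoform shares were computed from the same levels. Myl3 made up 71.4, 79.7 and 73.1% of the summed Myl3 and Myl4 level in mutant day 6 libraries against 3.26, 7.16 and 6.91% in wild type. In mutant day 5 replicates 1 and 2, which lack adult globins, it was 25.5 and 31.4% against 7.96, 3.02 and 7.14%. Acta1 made up 8.36, 3.86 and 5.15% of Acta1 and Actc1 on day 6 in the mutant and 65.5, 37.9 and 26.8% in wild type, and the shares did not overlap. Tnni3 held 18.5, 22 and 18.9% of the troponin I pair in mutant day 6 libraries against 22.7, 4.98 and 0.627% in wild type, whose replicate 1 lay above all 3. In the mutant it held 33.5, 20.4 and 33.8% on day 4 and 1.38, 1.33 and 15.2% on day 5, so that replicate 3 stood apart on day 5 and not on day 4. Myh6 held 26.3 and 30.2% of Myh6 and Myh7 in mutant day 4 replicates 1 and 2, below the 68.7 to 80.2% of wild type, and 95.5% in replicate 3. These day 4 shares rest on low levels. Myh6 was at 0.244 and 0.144 in mutant replicates 1 and 2 and at 0.0836, 0.0339 and 0.0663 in wild type. Wild-type Myh7 held only 20, 8 and 8 reads. Myl2 held 0.22 to 2.22% of Myl2 and Myl7 in mutant day 4 and 5 libraries without adult globins and 35.8 and 55.2% in those with them. The shares were not tested.

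**Figure D4:**
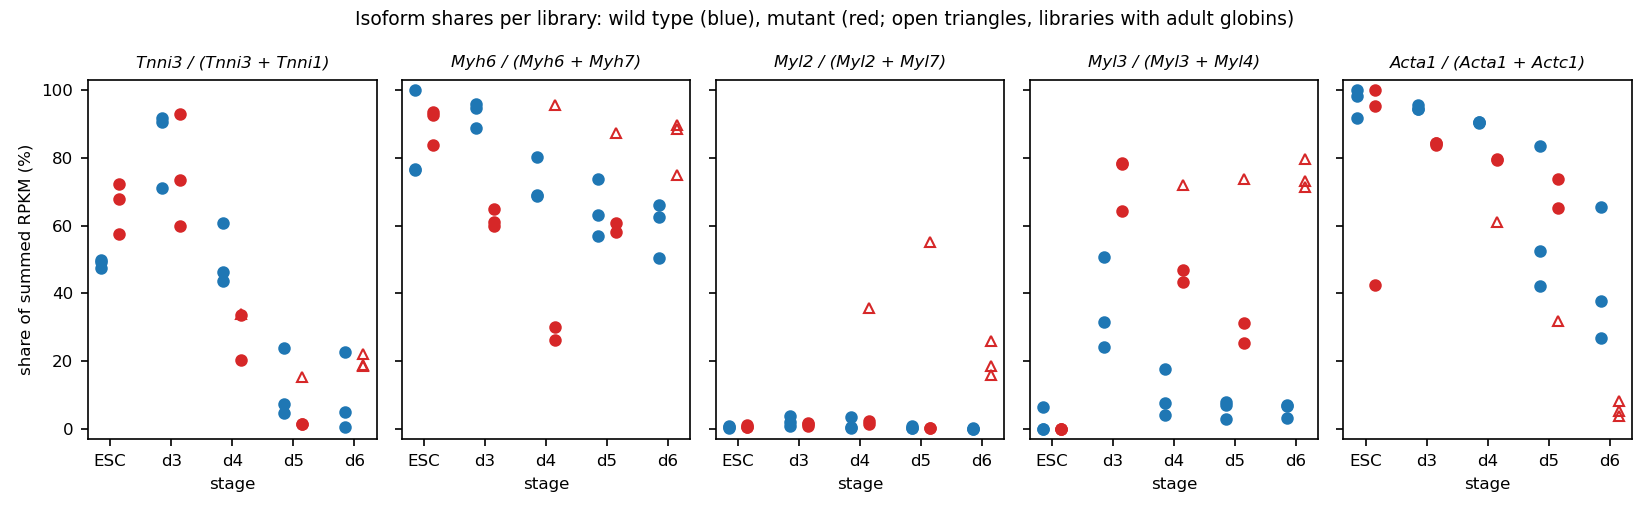
Share (%) of the first gene in the summed scaled RPKM of 5 isoform pairs, by stage, with 1 point per library in blue for wild type, red for mutant and open triangles for the 5 mutant libraries with adult globins. For Myl2 the triangles of days 4 and 5 stand at 35.8 and 55.2% against 2.22% or less in the other mutant libraries of these days, for Tnni3 on day 4 the triangle lies beside replicate 1, at 33.8 and 33.5%, and Acta1 falls from 94.3 to 95.5% on day 3 to 26.8 to 65.5% on day 6 in wild type.

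In the 5 mutant libraries with adult globins, some of the genes kept a fixed ratio to Cox8b and others did not. Divided by Cox8b, Myl2 was at 5.56, 6.83, 7.75, 6.86 and 6.68, a range of 1.39-fold, although its level ran from 17.1 to 129. Smpx and Myoz2 varied 1.56-fold, Tnni3 1.62-fold and Csrp3 1.71-fold. Of the 28 genes kept by the filter 4 varied by 2-fold or less (14.3%), as did 22 of the 13688 genes of the whole table that were kept and above 0 in these libraries (0.161%); Smpx was below the filter. For comparison Hbb-bs varied 1.63-fold, Cox6a2, another mature muscle oxidase subunit, 1.69-fold and Pln, the phospholamban gene, 1.19-fold. Hba-a1 varied 1.82-fold and Mb 1.51-fold. Other genes varied more, with Ckm at 2.63-fold, Gata4 at 4.16-fold and Nkx2-5 at 38.4-fold. Cox7a1, also on the mature heart list, was at 37.5, 16.8, 18.5, 33.7 and 34.4 in these libraries. Cox8b itself was at 3.08, 3.02, 5.83, 18.8 and 17.2. At the other end Neb varied 25.7-fold, Myh7 20.5-fold, Acta1 14-fold, Smyd1 13.6-fold and Myl7 7.33-fold. This is a description of 5 libraries, and what the shared ratio stems from was not tested.

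**Figure D5:**
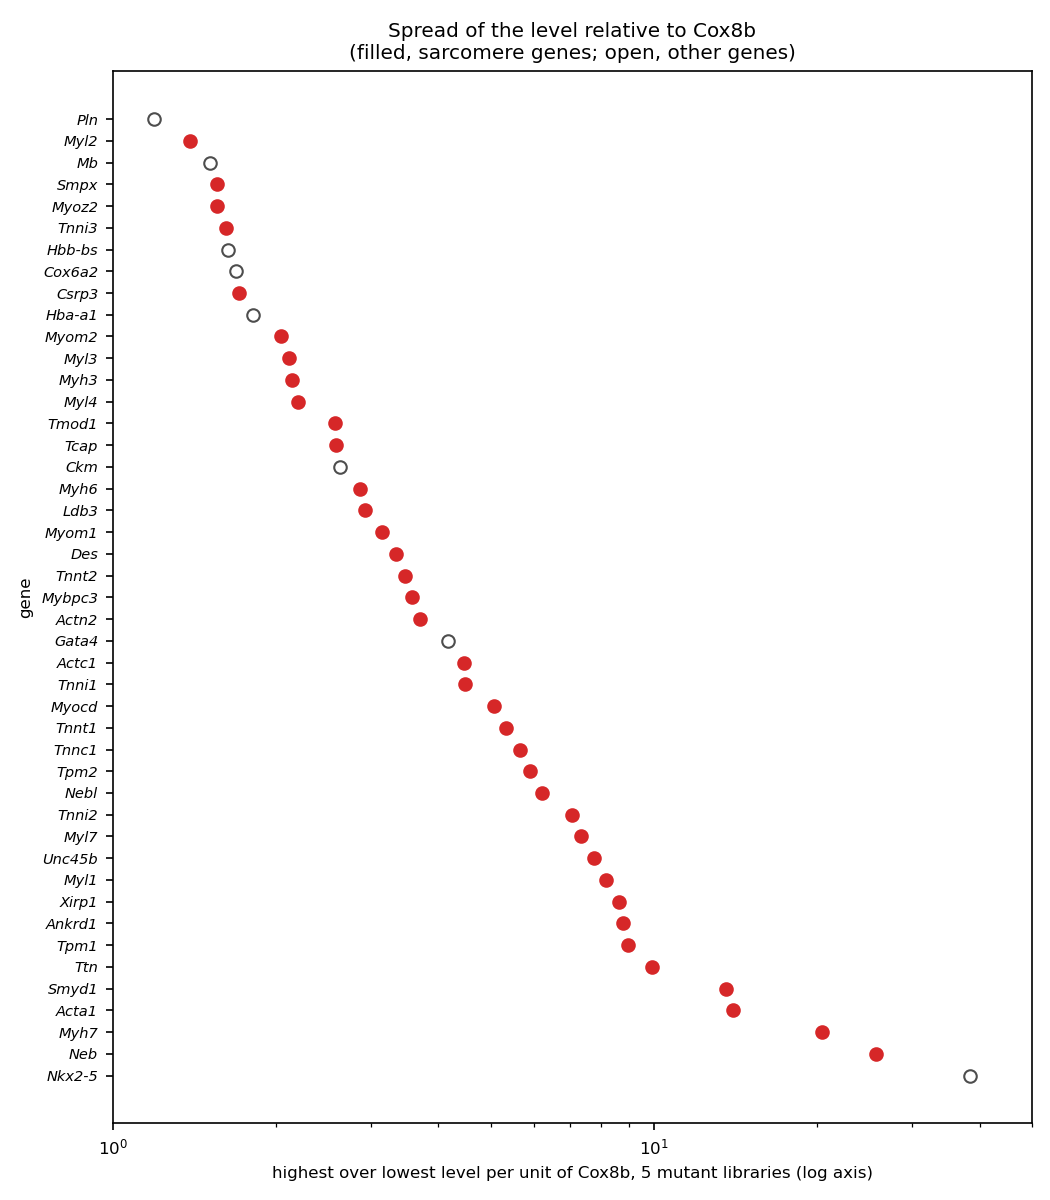
Highest over lowest level per unit of Cox8b across the 5 mutant libraries with adult globins (log axis), for sarcomere genes (filled) and other genes (open). Myl2 at 1.39, Smpx and Myoz2 at 1.56 and Tnni3 at 1.62 sit beside Hbb-bs at 1.63, and Smyd1 at 13.6 and Myh7 at 20.5 sit far from them. Among the open points, Ckm stands at 2.63, Gata4 at 4.16 and Nkx2-5 at 38.4.

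Markers of other muscle types were measured beside these genes. The skeletal regulators Myod1 and Myog were at 0.0924 and 0.12 or less in every library. The 10 skeletal muscle genes together ran from 35.6 to 59.2 in mutant day 6 libraries and from 14.7 to 17 in wild type, with 1 of the 10 at 0 in all 3 libraries in each group. Most of the mutant sum was Tnnt3, named after its values were seen, at 26.3, 30.6 and 43.6 against 5.68, 7.84 and 10.8. Ckm, also on the mature heart list, was at 3.99, 12.2 and 10.4 in the mutant. Mylpf went the other way, at 3.71, 5.47 and 4.26 against 9.6, 6.13 and 5.49. The 8 smooth muscle genes, Des among them, ran from 432 to 692 against 52.9 to 324, with Acta2 at 378, 624 and 585 against 26.2, 68.0 and 279 and Tagln at 0.274 or less on that day (Acta2 log2 change 2.69 ± 0.57, adjusted p = 0.00097). The 10 cardiac transcription factors, Myocd among them, summed to 731 to 803 against 223 to 434, most of it Hand1, named after its values were seen, at 577, 574 and 640 against 205, 239 and 344 (1.22 ± 0.28, adjusted p = 0.0017). Of the 7 of them tested, 5 were higher on day 5 and 6 on day 6. The cardiac factor Nkx2-5 was higher in the mutant on day 5 at 6.74, 11.3 and 2.02 against 1.56, 0.618 and 2.37 (1.68 ± 0.47, adjusted p = 0.011). Gata4 was at 5.77, 6.57 and 7.95 against 2.5, 4.27 and 10.1 and was not called. The 6 endothelial genes ran from 12.2 to 29.4 against 10.6 to 13.6 on day 6, with Pecam1 higher at 4.73 to 7.67 against 2.00 to 3.36 and Cdh5 lower at 1.30 to 6.05 against 6.73 to 10.1. The part of these markers in the results was not tested.

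A list of 58 other sarcomere genes, 32 of them kept, was read for comparison. On day 4, 2 were higher and 2 lower in the mutant, where 2.37% and 2.81% of all genes were. On day 5 the counts were 3 and 2, against 2.42% and 3.59%, and on day 6 they were 14 and 1, against 3.66% and 4.12%. The largest changes on day 6 were those of Hspb7 (3.78 ± 0.38), a small heat shock protein of muscle, Casq2 (3.27 ± 0.33), the cardiac calsequestrin, and Fbxl22 (2.71 ± 0.18), a Z-disc F-box protein. No wild-type library reached the filter level for these 3 genes, and Fbxl22 reached it only in the 3 mutant day 6 libraries, so that it had to differ. Nexn, which encodes the Z-disc protein nexilin, was higher on days 4 and 5 (1.94 ± 0.28 and 1.63 ± 0.28) and also without the 5 mutant libraries (1.68 and 1.58). Popdc2 was higher on both days (1.35 ± 0.37 and 2.07 ± 0.37; 1.65 and 2.02 without these libraries), and Tnnt3, fast troponin T, on day 5 (1.84 ± 0.29; 1.86 without). Ankrd2, a relative of Ankrd1, was lower on days 4, 5 and 6 (-4.50 ± 0.29, -3.50 ± 0.29 and -2.52 ± 0.29). It stood at 0.312, 0.442 and 0.397 against 11, 29.2 and 23 on day 4, so that Ankrd1 and Ankrd2 differed in opposite directions in the same libraries. Mylpf, the fast skeletal light chain, was lower on days 4 and 5 (-1.16 ± 0.27 and -1.13 ± 0.27), with -1.41 and -0.97 without the 5 mutant libraries, the second under the size limit.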

How the data were processed

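RNA from 30 libraries was analysed; 4 other samples of the series were not analysed here. The authors deposited 1 RPKM value per gene and library. The submitters' processing notes name STAR, DESeq2 and mm10; not given in the sources used here are the annotation, the counting and the strand setting. RPKM values were divided by median-of-ratios size factors (0.888 to 1.106, over 11618 genes), and log2(scaled RPKM + 0.5) was fitted with limma 3.58.1 (R 4.3.3) with a mean-variance trend and 1 mean per group over all 30 libraries. Genes at 1 scaled RPKM or more in at least 3 libraries were kept, and p-values were Benjamini-Hochberg adjusted over 14196 genes. The fit was tested on simulated data. Reads per library were inferred from the steps of the RPKM values (tolerance 0.02 reads); a value of 0 allows up to 3 reads, and such limits cover counting error only. Sums, shares and figures were made in Python 3.11.15.

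The 38 genes, the marker lists and the list of other sarcomere genes were chosen with earlier results of these data known. All 38 are named, with values in every library for 21 chosen by role where a result turns on them; of the other sarcomere genes the 3 largest rises and falls called on days 4, 5 and 6 are named, and of each marker list the first 2 genes. Leaving out the 5 mutant libraries with adult globins was added after the data were seen. Other alternatives were the scaling, pseudocounts of 0.1 and 1, the filter, the trend, the size limit, the libraries in the fit, a replicate block and leaving out each library. Promoter windows are from RefSeq GRCm38.p6.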

Additional observations from a re-analysis of the deposited data

Results flagged for a closer look

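The difference between mutant and wild type changed with stage for 27 of the 28 genes tested, where 42.2% of all genes passed. The test was an F test of the genotype by stage interaction (limma, adjusted over all genes kept). The adjusted p-values of the thick filament genes were 1.2e-05 (Myh6), 5.2e-08 (Myh7), 0.00071 (Myl2), 3.2e-05 (Myl3), 0.0016 (Myl4), 0.045 (Myl7) and 1.7e-05 (Mybpc3). The adjusted p-values of the thin filament genes were 0.00011 (Actc1), 0.0011 (Acta1), 5.8e-06 (Tpm1), 0.00034 (Tnnt1), 0.00011 (Tnnt2), 0.0045 (Tnni1), 1e-05 (Tnni2), 0.00024 (Tnni3), 0.004 (Tnnc1) and 0.00029 (Tmod1). The adjusted p-values of the Z-disc genes were 8.7e-06 (Actn2), 5.2e-07 (Ldb3), 5e-06 (Tcap), 0.00028 (Csrp3), 8.2e-06 (Myoz2), 3.4e-05 (Ankrd1) and 0.00032 (Des). Those of the M-band gene Myom1 and the assembly genes Smyd1 and Unc45b were 1.1e-07, 1.2e-09 and 1.2e-07. Myh7, Tmod1, Myom1, Tcap, Myoz2 and Unc45b passed the filter through mutant day 6 libraries alone. Myh6, Myl2, Actn2 and Ldb3 passed it through mutant libraries alone. These 10 genes had to differ, nothing is read from their p, and the count of 27 includes them. The test draws on the 3 mutant day 6 libraries and on day 4 and day 5 replicates 3, which hold adult globins, and without those 5 libraries, over ESC to day 5 with no day 6, 14 of the 28 genes tested passed, against 46.2% of all genes. The part of these libraries in the result was not tested beyond leaving them out.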

How the results depend on the processing

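Of 119 calls of the 28 genes over all comparisons, 94 were made in every alternative run for them and none changed sign. Among these comparisons, the 5 mutant libraries were left out only for mutant against wild type on days 4 and 5 and mutant day 5 against day 3. No call that involves mutant day 6 faced that alternative. A pseudocount of 1 ended 14 calls, fits of only the 6 libraries compared 8, no filter 6, leaving out the 5 mutant libraries 4 and quantile normalization 2; the filter of 5, no scaling, the same sum, no trend and the replicate block ended none among the calls they could test. Counts of genes differed as follows, and the cause was not tested. By adjusted p alone, counts were 2 higher and 2 lower in mutant ESCs, 8 and 2 on day 4, 14 higher on day 5, 6 higher and 2 lower from day 3 to day 5 and 4 lower from day 3 to day 6 in wild type, and 5 lower from ESCs to day 3 in the mutant. With a pseudocount of 0.1 they were 1 and 1 in ESCs, 9 higher on day 4, 13 higher on day 5, 6 higher from day 3 to day 5 in wild type and 5 lower from ESCs to day 3 in the mutant. With a pseudocount of 1 they were 3 lower from ESCs to day 3 and 5 higher from day 3 to day 6 in wild type, and 1 lower from ESCs to day 3 in the mutant. With the same sum per library, 5 were higher from day 3 to day 5 in wild type and 5 lower from ESCs to day 3 in the mutant. Day 4 gave 2 higher with no filter and 2 with only the 6 libraries compared, which gave 4 higher on day 5. A filter of 5 left 19 genes and 14 higher on day 6. It left 4 higher on day 4 and 6 on day 5, where 230 and 232 of all genes kept by it were higher. Counts over the 14196 genes kept moved as well. By adjusted p alone, genes higher in the mutant went from 337 to 1593 on day 4 and 343 to 1408 on day 5. In ESCs they went from 1214 to 3178, and genes lower from 444 to 3283. With a pseudocount of 0.1, 553 were higher on day 4 and 541 on day 5. With only the 6 libraries compared, these were 176 and 265. A larger count among the 28 is therefore not by itself a stronger result. Without the 5 mutant libraries, stage dependence, tested to day 5 only, was passed by 14 of 28, against 46.2% of all genes.

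Leaving out each library in turn gave 2 to 4 genes higher on day 4, 6 to 9 on day 5 and 20 to 22 on day 6, 4 to 5 lower on day 3, 1 lower on days 4 and 5, and 26 to 28 with stage dependence. In wild type it gave 9 to 10 higher and 4 to 5 lower from ESCs to day 3, 2 to 6 higher and 1 lower from day 3 to day 5, and 5 to 9 higher and 2 lower from day 3 to day 6. In the mutant it gave 7 higher and 2 to 3 lower from ESCs to day 3. From day 3 it gave 13 to 17 higher by day 5, and 24 higher and 1 lower by day 6. Counts over all genes kept moved too. On day 4, 337 were higher in the mutant in the main fit. That count was 283 without wild-type replicate 2 and 419 without mutant replicate 1, with 2 and 4 of the listed genes. On day 5 the main count was 343. It was 255 without wild-type replicate 2 and 560 without wild-type replicate 1, with 6 and 9 listed genes. On day 3, 330 to 380 of all genes were lower, against 352 in the main fit. Same-numbered libraries did not deviate together: of 15 pairs, 7 correlated above 0.1 (range -0.523 to 0.409) and 4 correlated best with their own number. With the replicate block 5 genes were higher on day 4, 9 on day 5 and 22 on day 6. From day 3 to day 5 in wild type 4 rose, 27 depended on stage, and no call was lost. Over all genes kept, 343 were higher with the block on day 4 and 358 on day 5. Day 6 without the 5 mutant libraries could not be fitted. At 43.3 M reads or more, a value of 0 does not exclude expression of up to 3 reads.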
